A study of Cervus nippon with 4 samples.

Results

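Abundant messenger RNA of back muscle (longissimus dorsi) was compared between an adolescent library (Msc_2, 3-year-old) and an adult library (Msc_3, 5-year-old) of Shuangyang sika deer. The members were the gene models with an FPKM of 15 or more in at least 1 of these 2 libraries. They numbered 4843 of the 326981 gene models listed for the series, and 238134 gene models were listed in Msc_2 or Msc_3. FPKM is a fragment number that the authors scaled for gene model length and for sequencing depth. The series holds 4 libraries, the others being Msc_1 (1-year-old, juvenile) and Msc_4 (10-year-old, aged). No treatment was given in the sources used here, and the deer were fasted before slaughter. Each library was 1 pool of RNA from 3 deer. The spread between deer was therefore not measured, no test between ages was run, and every difference given here is a difference between 2 pools. In whole muscle, fewer cells of a type and less RNA per cell cannot be told apart.

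Skeletal muscle is built of fibres packed with sarcomeres, the repeating units in which myosin pulls on actin. A small set of genes, for contractile proteins, for enzymes of energy metabolism and for the proteins encoded by mitochondrial DNA, is known to supply a large part of the messenger RNA of this tissue. Between adolescence and adulthood the muscle of mammals goes on growing by enlargement of existing fibres, and the balance of fibre types and of oxidative and glycolytic metabolism can shift. The files do not pair the gene models with gene names and hold no sequence. Neither the markers of muscle nor those of fat, blood or connective tissue could be looked up, and the gene models below carry no function. Only the 4 gene models chosen by the rule in the processing section are named.

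The members held most of the measured messenger RNA. They made up 1.48% of the gene models listed for the series, and carried 80.9% of the FPKM sum of Msc_2 and 80.6% of that of Msc_3. In the libraries that did not enter the choice of members, the same gene models carried 79.1% in Msc_1 and 79.4% in Msc_4. An FPKM of 15 or more was reached in both libraries by 3470 members, in Msc_2 only by 504 and in Msc_3 only by 869. The limit cut through a dense range of values. The lowest member had 15 FPKM in its higher library and the highest gene model left out had 14.99. There were 325 gene models from 15 to under 16 FPKM and 368 from 14 to under 15. The members were listed in all 4 libraries in 4807 cases. The FPKM sums were 763360.15 for Msc_2 and 825005.65 for Msc_3, and the number of gene models listed was 180230 and 170939. The files give neither counts nor gene model lengths, so that the number of fragments behind a value is unknown and no interval can be set on the value of a single gene model.

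More members were higher than lower in Msc_3, in deposited FPKM and after median-of-ratios scaling, but not under upper-quartile scaling over gene models above 0.3 FPKM, an alternative chosen after the data were seen (46.7% higher). In deposited FPKM, 2816 members (58.1%) were higher in Msc_3, 2025 were lower and 2 were equal. Of all gene models above 0.3 FPKM in at least 1 of the 2 libraries, 54.9% were higher. The median log2((FPKM + 0.1)/(FPKM + 0.1)) of Msc_3 over Msc_2 was 0.13 and the interquartile range was 0.87. The added 0.1 FPKM makes changes of low values look smaller on this scale. Over the 102405 gene models above 0.3 FPKM in at least 1 of the 2 libraries the median was also 0.13, with an interquartile range of 1.99. The centre of the members was thus at that of all gene models compared, while their values were packed more closely. Median-of-ratios scaling, which divides each library by its median ratio to the mean library over gene models listed in all 4, took 0.08 (log2) off the difference. After it the median of the members was 0.05, with 2574 higher (53.1%) and 2269 lower. Of all gene models compared, 52.5% were then higher, close to the share of the members.

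**Figure D1:**
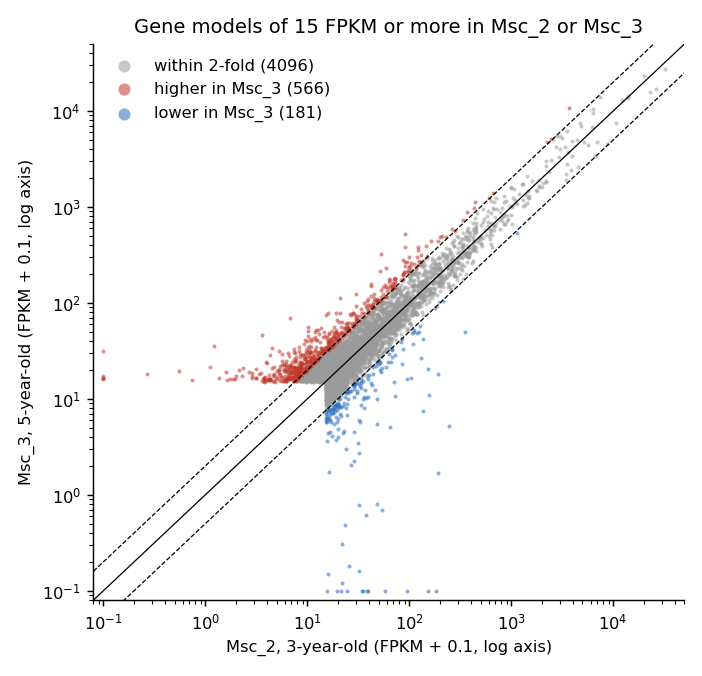
FPKM + 0.1 in Msc_2 (horizontal, log axis) and Msc_3 (vertical, log axis), 1 point for each of the 4843 gene models, with the solid line at equal values and dashed lines at 2-fold. The 566 gene models higher past 2-fold lie above the upper dashed line and the 181 lower past 2-fold below the other, while 4096 lie between the lines.

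The surplus on the higher side lay in changes of more than 0.5 (log2), both under and past 2-fold. Within 0.5 (log2) of no change, 1350 members were higher and 1415 were lower, close to even. From 0.5 to 1, 900 were higher and 429 were lower, and beyond 1, 566 were higher and 181 were lower. The fullest 0.1-wide bin, with 345 members, lay from -0.2 to -0.1, below both 0 and the median. The distribution therefore peaked on the lower side of 0 and carried a broad shoulder on the higher side. After median-of-ratios scaling, 1262 members were higher and 1510 lower within 0.5, 842 were higher and 551 lower from 0.5 to 1, and 470 were higher and 208 lower beyond 1. This scaling moved the log2 values by nearly the same amount, so that the shoulder was bound to be present on both scales.

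**Figure D2:**
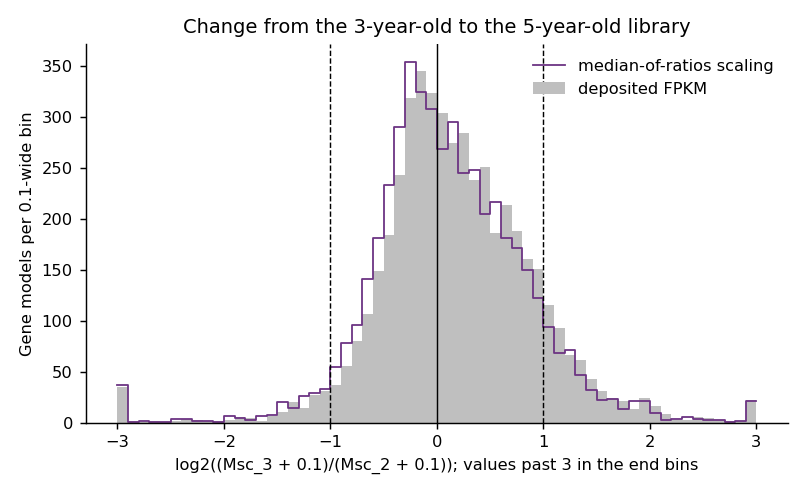
Number of gene models (vertical) per 0.1-wide bin of the log2 difference of Msc_3 over Msc_2 (horizontal), in deposited FPKM (grey) and after median-of-ratios scaling (line), with dashed lines at 2-fold and values past 3 in the end bins. The peak lies below 0 on both scales and the side of higher values falls off more slowly than the side of lower values.

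Past 2-fold, 566 members (11.7%) were higher in Msc_3 and 181 (3.74%) were lower, so that 75.8% of these were higher. Of them, 222 higher and 45 lower ones had 15 FPKM or more in both libraries. The rest reached 15 FPKM only in the library where they were high. This entry by a single library was uneven, with 869 members through Msc_3 only and 504 through Msc_2 only. Over all gene models above 0.3 FPKM in 1 of the 2 libraries, 27.6% were higher and 23.1% lower past 2-fold, 50.7% in all. Of the members, 15.4% passed this limit. After scaling, 470 members (9.7%) were higher and 208 (4.29%) were lower, against 26.5% and 23.8% over all gene models, and 69.3% of the members past 2-fold were higher. The upper limit cut through the shoulder, with 151 members within 0.1 below 1 and 116 within 0.1 above it. On the lower side 37 members lay within 0.1 of -1 inside the limit and 31 outside it.

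The changes past 2-fold were mostly small. Among the 566 higher members the median change was 2.47-fold, and 67.3% lay at or under 1.5 on the log2 scale. Of them, 71 passed 4-fold and 21 passed 8-fold. The 181 lower members had a median change of 2.6-fold, close to that of the higher ones, but a longer tail, with 54 past 4-fold and 35 past 8-fold. Over all gene models above 0.3 FPKM in 1 of the 2 libraries, 18.6% were higher and 18.0% lower past 4-fold, and 8.32% and 8.03% past 8-fold. Beyond 8-fold there were thus more lower than higher members, the opposite of the order at 2-fold. All 21 higher ones reached 15 FPKM in Msc_3 only, and the 35 lower ones had a median of 0.39 FPKM in Msc_3. Such members entered mainly through the library in which they were high, so that this order is a description of the chosen set only. Past 4-fold the order depended on scaling. There were 57 higher and 55 lower members after median-of-ratios scaling, and 55 and 57 under both upper-quartile scaling and equal FPKM sums. Across the scalings tried, the counts past 8-fold ran from 17 to 23 higher and from 34 to 37 lower. These extreme members were of modest abundance. Their level in the higher library ran from 15.61 to 69.33 FPKM for the 21 higher ones and from 15.48 to 244.03 FPKM for the 35 lower ones. Of the former 5 were not listed in Msc_2, with 15.85 to 31.26 FPKM in Msc_3. Of the latter 12 were not listed in Msc_3, with 15.48 to 183.85 FPKM in Msc_2 and a median of 36.49. Of these 12, 11 were listed in Msc_1 and 8 in Msc_4, so that the absence was not shared by all other libraries. The change of an unlisted gene model rests on the added 0.1 FPKM.

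The share of members past 2-fold changed little up to 600 FPKM and was lower above it. By the higher of the 2 values, 11.9% of the 2387 members from 15 to 30 FPKM were higher past 2-fold and 3.9% were lower. From 30 to 60 FPKM the shares were 11.7% and 4.26% of 1175 members, and from 60 to 150 FPKM 11.2% and 3.72% of 725. From 150 to 600 FPKM, 13.3% of 414 members were higher and 2.42% lower. In this class the ratio of higher to lower gene models was wider than in the classes below it. At 600 FPKM or more, 9 of 142 members (6.34%) were higher past 2-fold and 1 (0.704%) was lower. After scaling, the higher shares were 10.3%, 9.53%, 8.14%, 11.4% and 4.93% in order of class, and the lower shares 4.32%, 5.28%, 3.72%, 3.14% and 2.11%. Higher gene models outnumbered lower ones in each of the 5 classes on both scales. Under upper-quartile scaling over gene models above 0.3 FPKM the counts were even from 60 to 150 FPKM (37 and 37) and at 600 FPKM or more (4 and 4).

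Sorting by the higher value lets the compared libraries set the class. The members were for that reason also sorted by their mean in Msc_1 and Msc_4. In the 954 members under 15 FPKM by that mean, 23.1% were higher past 2-fold and 9.33% were lower. In these members at least 1 of the compared libraries exceeds the mean of the others by construction. From 15 to 600 FPKM the higher share lay between 8.47% and 10.2% and the lower share between 0.567% and 3.06%. At 600 FPKM or more by this mean, 8 of 127 members (6.3%) were higher past 2-fold and none were lower, and median-of-ratios scaling changed these counts to 6 and 2. Under upper-quartile scaling over gene models above 0.3 FPKM, 25 members were higher and 26 lower from 60 to 150 FPKM by this mean, and 91 were higher and 85 lower from 15 to 30 FPKM. No test was run on the classes, since gene models are not replicates.

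**Figure D3:**
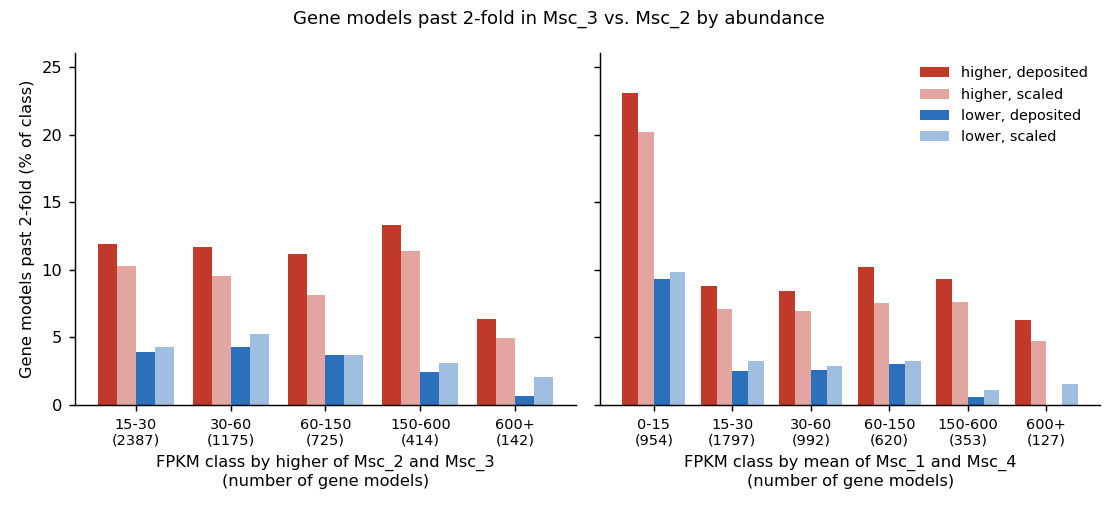
Share of gene models past 2-fold (vertical, percent of the class) by FPKM class (horizontal, number of gene models in brackets), with classes set by the higher of Msc_2 and Msc_3 (left) or by the mean of Msc_1 and Msc_4 (right). Bars for gene models higher in Msc_3 (red) exceed those for lower ones (blue) in every class, in deposited (dark) and median-of-ratios scaled (pale) FPKM, which was not so under upper-quartile scaling over gene models above 0.3 FPKM.

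Read as shares of each library, 19.1% of the total FPKM lay on different gene models in Msc_3 than in Msc_2. This share is the sum of the absolute differences between the libraries' shares, counted once for gain and loss, and it does not depend on scaling. It does depend on the gene models used, at 16.5% over those listed in both libraries and 20.5% without the 10 most abundant. The members carried 66.3% of the 19.1%. Their gains came to 12.5% of the total and their losses to 12.8%. Between the other pairs of libraries the same measure ran from 14.1% (Msc_4 vs. Msc_3) to 19.5% (Msc_2 vs. Msc_1). The move from Msc_2 to Msc_3 lay near the upper end of that range.

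In FPKM as deposited, members that were higher gained 124586.58 and members that were lower lost 76987.17. The net of 47599.41 FPKM was 77.2% of the net rise over all gene models, which was 61645.5. The net depended on scaling. It stayed a gain after median-of-ratios scaling (106116.7 gained and 94437.9 lost) but turned to a loss under upper-quartile scaling (99298.7 and 102001.6) and under equal FPKM sums (99537.2 and 101720.1). In deposited FPKM, the losses lay on few gene models. The 10 largest losses held 50.6% of the FPKM lost by members, and the 3 largest held 27.6%. The gains were spread more widely, with 30.2% of the FPKM gained on the 10 largest and 54.1% on the 50 largest. Members past 2-fold carried 29.6% of the FPKM gained and 8.73% of the FPKM lost. Most of the FPKM that moved was therefore on gene models that changed by less than 2-fold.

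**Figure D4:**
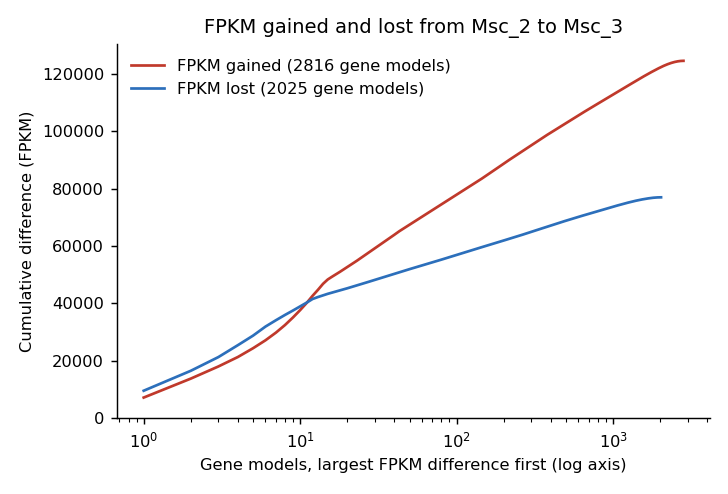
Cumulative FPKM difference between Msc_2 and Msc_3 (vertical, in FPKM) over gene models ordered by the size of their difference (horizontal, log axis), for the 2816 higher (red) and the 2025 lower (blue) gene models in deposited FPKM. The 10 largest losses reach 50.6% of the FPKM lost, and the gains climb past the losses after the first gene models and end at 124586.58 FPKM against 76987.17.

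The 3 most abundant gene models of Msc_2 showed the 3 largest losses. From Msc_1 to Msc_4, the most abundant had 26971.04, 31978.5, 27204.81 and 23833.66 FPKM. It stayed the most abundant in Msc_3 although its share of the library was 4.19% in Msc_2 and 3.3% in Msc_3. The next had 18463.1, 26429.49, 16880.41 and 16861.16 FPKM in the same order of libraries, and the third had 19711.23, 22737.18, 15784.28 and 15733.77. All of them were higher in Msc_2 than in any other library, and their log2 differences of Msc_3 over Msc_2 were -0.23, -0.65 and -0.53. Over the 12 largest losses, 0 gene models passed 2-fold, the log2 differences ran from -0.99 to -0.23, and both Msc_1 and Msc_4 lay below Msc_2 in 12 of 12. These gene models were chosen for a loss from Msc_2, which favours a high value in that library.

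The largest gain was that of c663139_g5, which had 7605.18, 3682.0, 10847.94 and 6945.8 FPKM in the libraries from 1 to 10 years. It was 2.95-fold higher in Msc_3 (log2 1.56, and 1.48 after scaling) and moved from rank 25 in Msc_2 to rank 9 in Msc_3. Its level was lowest in Msc_2 and highest in Msc_3, with the juvenile and the 10-year-old libraries between them. The gain next in size was 6607.79 FPKM, from 7489.01 in Msc_2 to 14096.8 in Msc_3, at 0.91 just under 2-fold. That gene model had 13305.27 FPKM in Msc_1 and 11311.87 in Msc_4, and was also lowest in Msc_2. The third gain was 4229.86 FPKM, from 6378.6 to 10608.46, at 0.73 on the log2 scale. Over the 12 largest gains, 3 gene models passed 2-fold, Msc_1 lay above Msc_2 in 8 and Msc_4 lay above Msc_2 in 11. These were chosen for a gain from Msc_2, which favours a low value there.

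A further abundant gene model past 2-fold was c683631_g1, with 3380.45, 2234.29, 4790.01 and 3757.87 FPKM from Msc_1 to Msc_4. It was 2.14-fold higher in Msc_3 (log2 1.10, and 1.02 after scaling), close to the limit. Upper-quartile scaling and equal FPKM sums, which each take 0.11 (log2) off the difference, put it just under 2-fold. Msc_2 was the lowest of the 4 libraries. On the lower side c541668_g1 had 392.37, 1129.69, 534.24 and 447.31 FPKM in this order, which is 2.11-fold lower in Msc_3 (log2 -1.08, and -1.16 after scaling). Its level in Msc_2 stood above the other 3 libraries, which lay close together. The pattern of c653454_g1 was of another kind, with 227.24, 354.64, 49.37 and 2.02 FPKM from the juvenile to the aged library. It was 7.17-fold lower in Msc_3 (log2 -2.84, and -2.92 after scaling), went from rank 202 to rank 1402, and was lower still at 10 years.

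The most abundant gene models as a whole took a smaller share of Msc_3 than of Msc_2. Ranked by their mean in Msc_1 and Msc_4, the 10 most abundant held 21.1% of Msc_2 and 18.7% of Msc_3, beside 19.8% of Msc_1 and 18.9% of Msc_4. In FPKM this was 161174.37 in Msc_2 and 154387.28 in Msc_3. Of these 10, 6 were higher and 4 lower in Msc_3, and none passed 2-fold. The 50 most abundant held 40.5% of Msc_2 and 39.1% of Msc_3, although their summed FPKM was 308976.8 in Msc_2 and 322341.28 in Msc_3. Over the 500 most abundant the shares were 62.4% and 61.5%, with 290 gene models higher and 210 lower. At each of these sizes the share in Msc_2 was the highest of the 4 libraries. The membership of the leading ranks was largely shared. Msc_2 and Msc_3 had 8 of their 10 most abundant gene models in common, 48 of 50, 87 of 100 and 423 of 500.

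Levels in Msc_1 and Msc_4 were not used to choose the members. The 566 members higher past 2-fold had medians of 16.84, 11.02, 29.84 and 20.62 FPKM from Msc_1 to Msc_4. For the 181 lower members the medians were 14.16, 28.89, 8.59 and 15.41 FPKM. Both sets were chosen to differ between Msc_2 and Msc_3, and their medians in the other libraries lay in between. On the log2 scale the level in Msc_1 was nearer to Msc_3 than to Msc_2 for 231 of the 566 higher members (40.8%) and for 104 of the 181 lower members (57.5%). The level in Msc_4 was nearer to Msc_3 for 331 higher members (58.5%) and for 106 lower members (58.6%). Over all members Msc_1 was nearer to Msc_3 for 46.9% and Msc_4 for 53.6%. Taken jointly, 198 of the higher members had Msc_1 nearer to Msc_2 and Msc_4 nearer to Msc_3, and 98 had the opposite. In 133 both libraries were nearer to Msc_3, and in 137 both were nearer to Msc_2. Of the lower members 42 had Msc_1 nearer to Msc_2 and Msc_4 nearer to Msc_3, 40 had the opposite, 64 had both nearer to Msc_3 and 35 had both nearer to Msc_2. No arrangement held most of either set.

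**Figure D5:**
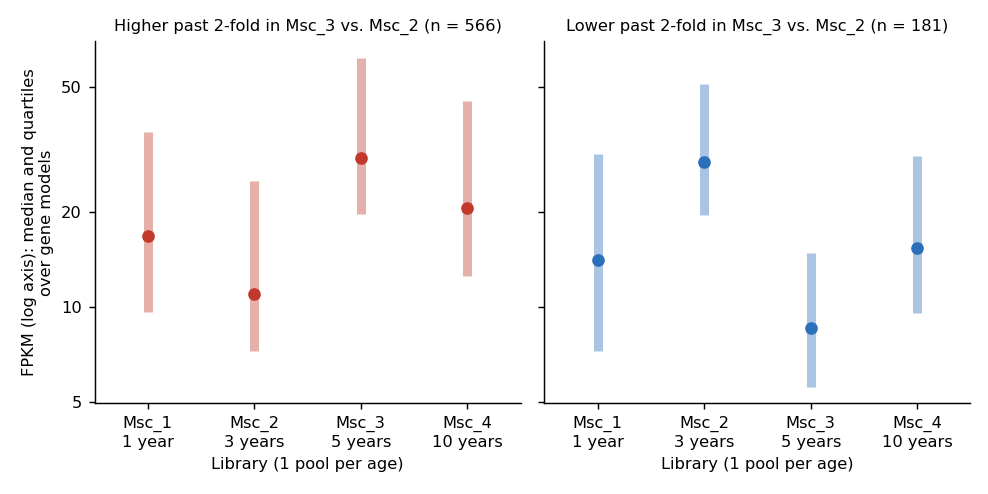
FPKM (vertical, log axis) in the 4 libraries (horizontal) of the gene models higher (left, 566) and lower (right, 181) past 2-fold in Msc_3 vs. Msc_2; points are medians and bars span the quartiles over gene models, not an error over deer. In both panels Msc_1 and Msc_4 lie between Msc_2 and Msc_3, the libraries by which the gene models were chosen.

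Of the 566 higher members 404 were at their lowest in Msc_2 and 466 at their highest in Msc_3 of the 4 libraries, and of the 181 lower members 138 were highest in Msc_2 and 112 lowest in Msc_3. The choice of these members by Msc_2 and Msc_3 largely sets these counts. Over all 4843 members in deposited FPKM, 1503 were lowest in Msc_1, 1491 in Msc_2, 984 in Msc_4 and 865 in Msc_3. The highest level was in Msc_3 for 1699, in Msc_1 for 1144, in Msc_2 for 1031 and in Msc_4 for 969. The difference of Msc_4 over Msc_1, which shares no library with Msc_3 over Msc_2, had a median log2 of 0.20 in the higher members and 0.14 in the lower members, against 0.05 over all members. Both sets therefore lay on the same side of the median of all members. Past 2-fold in Msc_4 vs. Msc_1 were 118 up and 45 down of the 566 higher members and 36 up and 28 down of the 181 lower members. Over all 4843 members, 461 were up and 260 down. Of all gene models above 0.3 FPKM, which are mostly of lower abundance, 28.9% were higher and 25.7% lower.

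For the same 4843 members, the median log2 difference was -0.02 from Msc_1 to Msc_2, 0.13 from Msc_2 to Msc_3 and -0.08 from Msc_3 to Msc_4. In Msc_2 vs. Msc_1, 390 members were higher and 257 lower past 2-fold, where 24.5% of all gene models above 0.3 FPKM were higher and 27.8% lower. From Msc_3 to Msc_4, 94 members were higher and 252 lower, where 25.5% of all were higher and 22.6% lower. These comparisons share a library with Msc_3 vs. Msc_2, and a member had to be abundant in Msc_2 or Msc_3, which favours a rise into and a fall out of these libraries. With members chosen anew for each step, 4737 gene models had 15 FPKM or more in Msc_1 or Msc_2 and 4845 in Msc_3 or Msc_4. Of the former 342 (7.22%) were higher and 428 (9.04%) lower past 2-fold at the later age, and of the latter 172 (3.55%) were higher and 233 (4.81%) lower. After median-of-ratios scaling these counts were 386 and 379 at the earlier step and 163 and 252 at the later one. Of all gene models above 0.3 FPKM, 25.2% were then higher and 27.1% lower at the earlier step, and 25.2% and 22.9% at the later one. Whether the steps differ beyond the spread between deer could not be tested.

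Part of the members came from the same assembly component, the number at the start of the name of a gene model, and such gene models can share sequence and reads. The 4843 members belonged to 4353 components, 427 of which held 2 or more members, 917 in all, with at most 5 in a component. Of these 917 members 151 were past 2-fold, where 15.4% of all members were. In 372 components with exactly 2 members, the log2 differences of the pair lay a median of 0.60 apart, and 77 pairs lay more than 1 apart. The gap between members of different components was not computed, so that 0.60 has no baseline. A member higher and a member lower past 2-fold occurred in the same component in 2 cases. In 18 components 2 or more members were higher past 2-fold, and in 6 components 2 or more were lower. For 3370 members the component held at least 1 further listed gene model of any abundance. The values of single members of such components are uncertain, since the division of reads between near-identical gene models is not given in the sources used here.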

How the data were processed

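Messenger RNA of the longissimus dorsi was sequenced on a HiSeq2500 by the authors, from 1 pool of 3 deer per age. After removal of adaptors and reads of low quality, the authors deposited 1 FPKM value per gene model, with 2 decimals. Bowtie 0.12.2 is named in the submitters' processing notes without a role. Assembler, counter and gene model lengths: not given in the sources used here.

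Values were joined on the gene model identifier with pandas 2.3.3, numpy 2.4.6 and scipy 1.17.1 in Python 3.11.15, and figures were drawn with matplotlib 3.10.9. An unlisted gene model was set to 0. Differences were computed as log2(FPKM + 0.1), and a gene model was counted past 2-fold when this differed by more than 1. With 1 library per age, variation between deer is not measured, and no test was run. The study's comparison of reads with DEGseq needs counts and was not repeated. In it the study reported fewer unigenes up-regulated than down-regulated in Msc_3 vs. Msc_2, the opposite order to the members past 2-fold here. It used adjusted read counts, a q value limit and the study's unigenes rather than the members, so the 2 sets of counts are not alike. The main setting was unscaled FPKM. Alternatives were median-of-ratios scaling, an unweighted trimmed mean of M-values (each side trimmed by 30% for M and 5% for A), upper-quartile scaling, equal FPKM sums, a pseudocount of 1, other filters and sums per component. The filter was applied to deposited FPKM under each scaling. The code was tested on simulated data with a planted shift and planted changes.

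Named are the 2 higher and the 2 lower gene models with the largest FPKM difference among members past 2-fold both unscaled and after median-of-ratios scaling. The members and the lists were chosen with earlier results of these data known.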

Additional observations from a re-analysis of the deposited data

How the results depend on the processing

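No paired analysis was possible because every age is a single pooled library, and for the same reason leaving out replicates was not possible. The share of members past 2-fold that were higher, 75.8% in deposited FPKM, depended on scaling but stayed above 50% under each scaling run. It was 69.3% after median-of-ratios scaling over gene models listed in all 4 libraries, 70.3% with gene models of 15 FPKM or more in both libraries, 69.4% when M-values were averaged after trimming, and 66.4% under both upper-quartile scaling and equal FPKM sums. The last 2 took the median log2 to 0.020 and 0.021. Over all gene models compared, the scalings took the median log2 from 0.13 to values between -0.04 and 0.26. After the data were seen, 2 more centrings were added. Upper-quartile scaling over gene models above 0.3 FPKM gave 366 higher and 272 lower members, 57.4% higher, with 83532.1 FPKM gained and 122384.2 lost, and turned the median log2 to -0.061. Centring on the fullest bin gave 85.3% higher, a median of 0.28 and 50474.5 FPKM lost. With a filter of 60 FPKM there were 1281 gene models, 145 higher and 38 lower (79.2% higher). With a filter of 0.3 FPKM there were 102405, 28307 higher and 23612 lower (54.5%), and an interquartile range of 1.99. With 15 FPKM or more in both libraries, 222 were higher and 45 lower (83.1%). These filters compare other sets of gene models. The other 60 of 87 values moved by less than their limits, which were 1.5 times for counts, sums and spreads and 0.1 for the median log2. For the share the limit was the 95% binomial interval (72.5% to 78.8%, exact). That interval treats gene models as independent, although they are not replicates. It served only as a limit and gives no precision for the share. Among the 60 values, upper-quartile scaling and equal FPKM sums turned the net of FPKM gained and lost by members from a gain to a loss (99298.7 and 102001.6, and 99537.2 and 101720.1).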
